A study of Mus musculus with 8 samples.

Results

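The genes described here encode the nuclear end of the Wnt pathway in mouse embryonic stem cells (ESCs): the 4 TCF/LEF DNA-binding factors (Tcf7, Lef1, Tcf7l1 and Tcf7l2), their coactivator beta-catenin (Ctnnb1) and the 4 full-length Groucho corepressors (Tle1, Tle2, Tle3 and Tle4). They were listed by name as parts of the pathway, with no threshold on their values, and all 9 were found among the 38991 genes measured. All 9 also passed the filter on low values, an FPKM (fragments mapped to a gene, scaled by transcript length and by the library's total) of at least 1 in at least 2 cultures, which kept 12927 genes.

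RNA of 8 cultures of Rex1GFPd2 cells was sequenced, 2 cultures in each of 4 conditions. Rex1GFPd2 is an ESC line of strain 129 whose Rex1 (Zfp42) gene drives a short-lived GFP. All cells had first spent 6 passages in 2i, which combines CH (CHIR99021, a GSK3 inhibitor, 3 µM) with PD (PD0325901, a Mek inhibitor, 1 µM), and then 5 passages in N2B27 medium on gelatin in their own condition, so that RNA was taken at passage 11. The 2i+LIF cultures received CH, PD and the cytokine LIF, the 2i cultures received CH and PD without LIF, the LIF+PD cultures received LIF and PD without CH, and the CH+LIF cultures received CH and LIF without PD. Every condition thus lacked 1 or none of the 3 factors, all cells came from a single line, and every condition followed the same period in 2i. The labels number the 2 cultures of a condition without saying whether they were set up independently, so p-values measure the spread between these samples, which may be technical.

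GSK3 is a kinase of the destruction complex that marks beta-catenin for degradation, and an inhibitor such as CH lets beta-catenin accumulate and enter the nucleus. There beta-catenin binds TCF/LEF factors that sit on Wnt target genes, and it competes with or displaces Groucho corepressors. In ESCs Tcf7l1 (also called Tcf3) is best known as a repressor of the naive pluripotency genes, which beta-catenin relieves, whereas Tcf7 and Lef1 are better known as activators together with beta-catenin and are themselves Wnt targets in many tissues.

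The TCF/LEF factors bind a short core, here searched as CTTTGA or CTTTGT on both strands, in windows that run from 250 bases before to 50 bases after each start site in RefSeq (GRCm38.p6). The 9 genes had 16 such windows, of which 3 held at least 1 match, while 31.2% of all 32851 windows did. The stretches below are shown because Lef1 had the largest difference between conditions among these genes and because Tcf7l1 and Tcf7l2 held the only other matches. Capitals mark the searched core, and TCAAAG and ACAAAG are its reverse complements. The first stretch (chr3:131110047-131110296, + strand) ends at the base before an upstream Lef1 start site and holds no match. The second (chr3:131156044-131156293, + strand) precedes a start site inside the Lef1 gene, overlaps no GENCODE M21 exon, and holds matches that begin 180, 146 and 120 bases before that start, where 1.14% of all windows hold at least 3. The Tcf7l1 match (chr6:72789058-72789083, - strand) lies 28 bases before the RefSeq start and the Tcf7l2 match (chr19:55895297-55895322, + strand) lies 14 bases before a start inside the gene. The Tcf7l1 match also lies within the Tcf7l1 gene as GENCODE M21 places it, and 259 of the 300 bases of its window fall in GENCODE exons. A match is a description of letters, and binding was not measured here.
Lef1, upstream start: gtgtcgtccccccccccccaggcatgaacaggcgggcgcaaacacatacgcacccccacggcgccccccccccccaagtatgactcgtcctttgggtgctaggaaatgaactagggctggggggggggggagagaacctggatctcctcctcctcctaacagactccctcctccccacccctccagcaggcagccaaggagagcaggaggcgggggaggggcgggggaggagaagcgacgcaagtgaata
Lef1, internal start: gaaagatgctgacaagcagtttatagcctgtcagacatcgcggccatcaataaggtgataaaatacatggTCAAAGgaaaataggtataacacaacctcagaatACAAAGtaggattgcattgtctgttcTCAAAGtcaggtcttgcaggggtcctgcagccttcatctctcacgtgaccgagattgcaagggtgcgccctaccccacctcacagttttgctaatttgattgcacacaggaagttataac
Tcf7l1, around the match: cctgtcaaaaCTTTGTcgccgcagcg
Tcf7l2, internal start, around the match: aaatatcaggCTTTGTtcttttgatt

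The 7 ESC markers were each above an FPKM of 1 in every condition and summed to between 2932 and 3807 FPKM in the 8 cultures, with Pou5f1 alone at 1625 to 2269. Several of them differed between the conditions and are given with the markers of other cell types. Relative depth, estimated from weakly expressed genes, ran from 0.499 in replicate 1 of 2i to 1.18 in replicate 2 of CH+LIF, against replicate 1 of 2i+LIF. In bulk RNA, fewer cells of a type and less RNA per cell cannot be told apart. Differences below are on the log2(FPKM + 1) scale with their standard error (SE), tested with limma in a single fit of all 8 cultures, two-sided, with Benjamini-Hochberg adjustment over the 12927 genes and a threshold of 0.05. The 3 comparisons with 2i+LIF share the same 2 cultures of 2i+LIF. An exact permutation test of 2 against 2 cultures cannot go below p = 0.333, so none is given.

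Among the TCF/LEF factors, Lef1 was higher in both conditions that kept CH but lacked LIF or PD, Tcf7l1 was lower without PD and higher without CH, Tcf7 was lower without CH, and Tcf7l2 was lower without LIF. Each of the 4 genes had its own order of condition means. Some neighbouring conditions lay close: the lower 2i+LIF culture had 59.6 FPKM of Tcf7 and the higher CH+LIF culture 59.0.

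Lef1 (chromosome 3, 131110471 to 131224356, mm10, + strand) measured 6.02 and 5.46 FPKM in 2i+LIF, 37.1 and 36.4 in 2i, 4.52 and 4.97 in LIF+PD, and 31.3 and 17.9 in CH+LIF. Both 2i cultures and both CH+LIF cultures were far above all others, and the 2 CH+LIF cultures differed widely from each other. Lef1 was 6.41-fold higher in 2i than in 2i+LIF, by 2.49 ± 0.23 on the log2 scale (SE, n = 2 per condition, limma adjusted p = 0.000712). In CH+LIF it was 4.29-fold higher than in 2i+LIF, by 1.88 ± 0.23 (limma adjusted p = 0.00219). In LIF+PD, where CH was absent, the difference from 2i+LIF was -0.23 with a 95% interval of -0.77 to 0.31 (limma adjusted p = 0.498). Lef1 was therefore low both with all 3 factors and without CH, and high when CH was present with either LIF or PD missing. It was lower in LIF+PD than in 2i, a log2 difference of -2.72 ± 0.23 (limma adjusted p = 0.000337) and higher in CH+LIF than in LIF+PD by 2.11 ± 0.23 (limma adjusted p = 0.000788). Between CH+LIF and 2i the difference was -0.61 with an interval of -1.15 to -0.08 (limma adjusted p = 0.0931). This last comparison turned on 1 culture: without replicate 1 of CH+LIF, the higher of the 2, Lef1 was lower in CH+LIF past the threshold (limma adjusted p = 0.00863). Lef1 and Tcf7 can also be transcribed into shorter forms without the beta-catenin binding region, and the gene-level FPKM do not separate these.

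**Figure D1:**
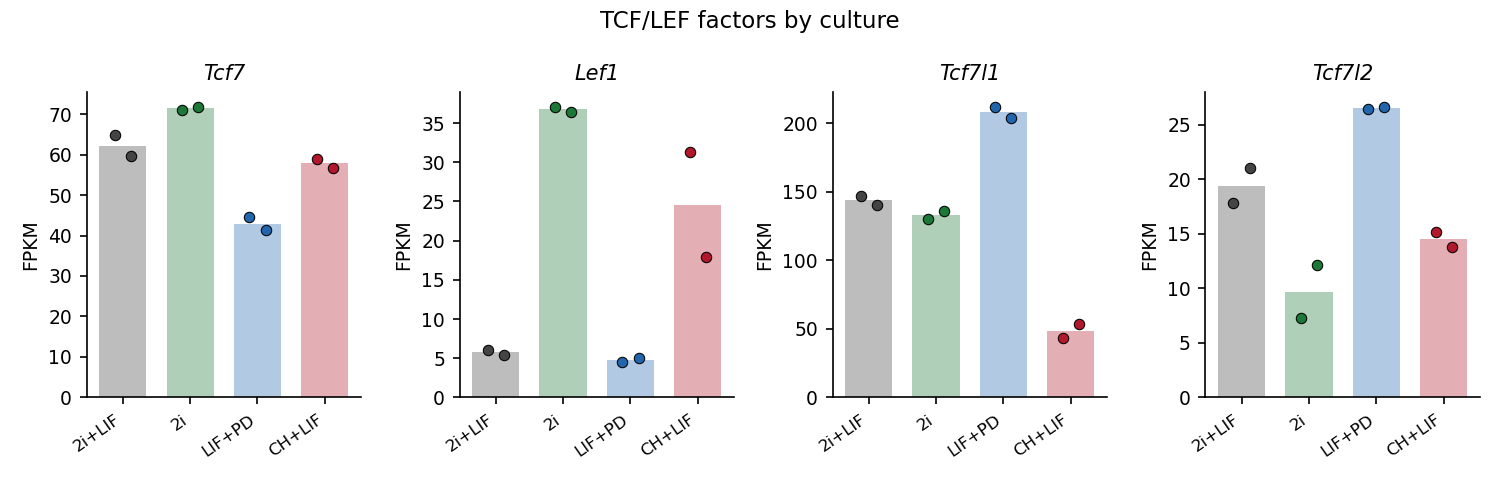
FPKM of the 4 TCF/LEF genes (vertical axes, each with its own scale from 0) in the 4 conditions. Points are the 2 cultures of a condition and bars their mean; Lef1 is high in 2i (36.8 FPKM) and CH+LIF (24.6 FPKM), whereas Tcf7l1 is highest in LIF+PD (208 FPKM) and lowest in CH+LIF (48.6 FPKM).

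Tcf7l1 (chromosome 6, 72626378 to 72789254, - strand) was the most abundant TCF/LEF transcript in 2i+LIF, 2i and LIF+PD, with 147 and 140.5 FPKM in 2i+LIF, 130.3 and 135.9 in 2i, 212 and 204 in LIF+PD, and 43.5 and 53.7 in CH+LIF. The cultures without CH were the highest and those without PD stood clearly apart as the lowest. Tcf7l1 was 2.96-fold lower in CH+LIF than in 2i+LIF, a log2 difference of -1.55 ± 0.11 (limma adjusted p = 0.000364). It was also lower in CH+LIF than in 2i (-1.44 ± 0.11, limma adjusted p = 0.00026) and than in LIF+PD (-2.08 ± 0.11, limma adjusted p = 5.01e-05). These falls still passed the test with any single culture left out. In LIF+PD Tcf7l1 was 1.45-fold higher than in 2i+LIF (0.53 ± 0.11, limma adjusted p = 0.012) and higher than in 2i (0.64 ± 0.11, limma adjusted p = 0.00528). The rise against 2i+LIF missed the threshold without replicate 1 (limma adjusted p = 0.0501) or 2 (0.0671) of 2i+LIF or without replicate 1 of LIF+PD (0.0675). Between 2i and 2i+LIF the difference was -0.11 with an interval of -0.36 to 0.14 (limma adjusted p = 0.511). In 5 of the 8 cultures the deposited FPKM of Tcf7l1 lay outside the lower and upper bounds deposited with it, as did 10.1% of all values of at least 1 FPKM.

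Tcf7 (chromosome 11, 52252371 to 52283014, - strand), also called Tcf1, measured 64.9 and 59.6 FPKM in 2i+LIF, 71.0 and 71.9 in 2i, 44.6 and 41.3 in LIF+PD, and 59.0 and 56.8 in CH+LIF. The range between conditions was narrow, and the LIF+PD cultures were the lowest by a clear margin. Tcf7 was lower in LIF+PD than in 2i+LIF (-0.53 ± 0.08, limma adjusted p = 0.00449), than in 2i (-0.72 ± 0.08, limma adjusted p = 0.0011) and than in CH+LIF, which was higher by 0.42 ± 0.08 (limma adjusted p = 0.00832). The last of these was lost without replicate 2 of LIF+PD (limma adjusted p = 0.0537) or replicate 1 of CH+LIF (0.0505). Against 2i+LIF the difference was 0.20 in 2i, with an interval of 0.00 to 0.39 (limma adjusted p = 0.141), and -0.10 in CH+LIF, with an interval of -0.29 to 0.09 (limma adjusted p = 0.404). The latter became 0.10 when values were rescaled to TPM. Tcf7 was lower in CH+LIF than in 2i (-0.30 ± 0.08, limma adjusted p = 0.0378). That call did not hold when any 1 of the 8 cultures was left out: its adjusted p was then 0.0522 and 0.0521 without replicates 1 and 2 of 2i+LIF, 0.108 and 0.11 without those of 2i, 0.0521 and 0.0522 without those of LIF+PD, and 0.102 and 0.141 without those of CH+LIF. It also ended under TPM scaling (limma adjusted p = 0.233), size factors (0.0519), no mean-variance trend (0.0727) and a fit of these 2 conditions alone (0.0767).

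Tcf7l2 (chromosome 19, 55741810 to 55933654, + strand), also called Tcf4 and central to Wnt signalling in the gut, had 2i cultures that were far apart for its level. It measured 17.8 and 21.0 FPKM in 2i+LIF, 7.23 and 12.1 in 2i, 26.4 and 26.7 in LIF+PD, and 15.2 and 13.8 in CH+LIF. The 2i cultures were the lowest and the LIF+PD cultures the highest. Tcf7l2 was higher in LIF+PD than in 2i by 1.40 ± 0.21 (limma adjusted p = 0.00345), a difference that still passed with any single culture left out. It was lower in 2i than in 2i+LIF (-0.97 ± 0.21, limma adjusted p = 0.02) and lower in CH+LIF than in LIF+PD (-0.83 ± 0.21, limma adjusted p = 0.0231). The first of these calls was lost without replicate 1 (limma adjusted p = 0.0599) or 2 (0.109) of 2i+LIF, with no filter (0.0503) and with the 2 conditions fitted alone (0.084). The second was lost without replicate 1 (0.0882) or 2 (0.0911) of LIF+PD, without replicate 1 (0.0758) or 2 (0.0994) of CH+LIF, with no filter (limma adjusted p = 0.0539) and under TPM scaling (0.0522). The remaining differences did not pass: 0.44 for LIF+PD against 2i+LIF (interval -0.05 to 0.93, limma adjusted p = 0.17), -0.39 for CH+LIF against 2i+LIF (-0.89 to 0.10, 0.209) and 0.57 for CH+LIF against 2i (0.08 to 1.06, 0.0878). Leaving out a 2i culture brought them past the threshold: without replicate 1 or 2 of 2i the adjusted p was 0.0357 and 0.0367 for LIF+PD and 0.0483 and 0.0495 for CH+LIF against 2i+LIF, and without replicate 2 the difference between CH+LIF and 2i was 0.91 (limma adjusted p = 0.0114).

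The make-up of the family differed between conditions. FPKM is scaled by transcript length, so levels may be set side by side within a culture. The 4 TCF/LEF genes together summed to 231.1 ± 6.43 FPKM in 2i+LIF (SD, n = 2), 251 ± 7.6 in 2i, 282.2 ± 7.63 in LIF+PD and 145.6 ± 4.84 in CH+LIF. The sums of the 2 CH+LIF cultures, 149 and 142.2, were below those of all other cultures, which lay between 226.6 and 287.6. Tcf7l1 made up 62.2% ± 0.25 of the sum in 2i+LIF, 53% ± 0.022 in 2i, 73.7% ± 0.063 in LIF+PD and 33.5% ± 6 in CH+LIF. Lef1 made up 2.48% ± 0.11, 14.7% ± 0.64, 1.68% ± 0.16 and 16.8% ± 6 in the same order. In CH+LIF, unlike the other conditions, Tcf7 (39.8% ± 0.24) was the largest component. There were 24.4 and 25.8 Tcf7l1 FPKM for each Lef1 FPKM in 2i+LIF, 3.51 and 3.73 in 2i, 47 and 41 in LIF+PD, and 1.39 and 3 in CH+LIF. The ranges of the 4 conditions did not overlap. These shares and ratios are descriptions of transcript levels in the cultures and were not tested.

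**Figure D2:**
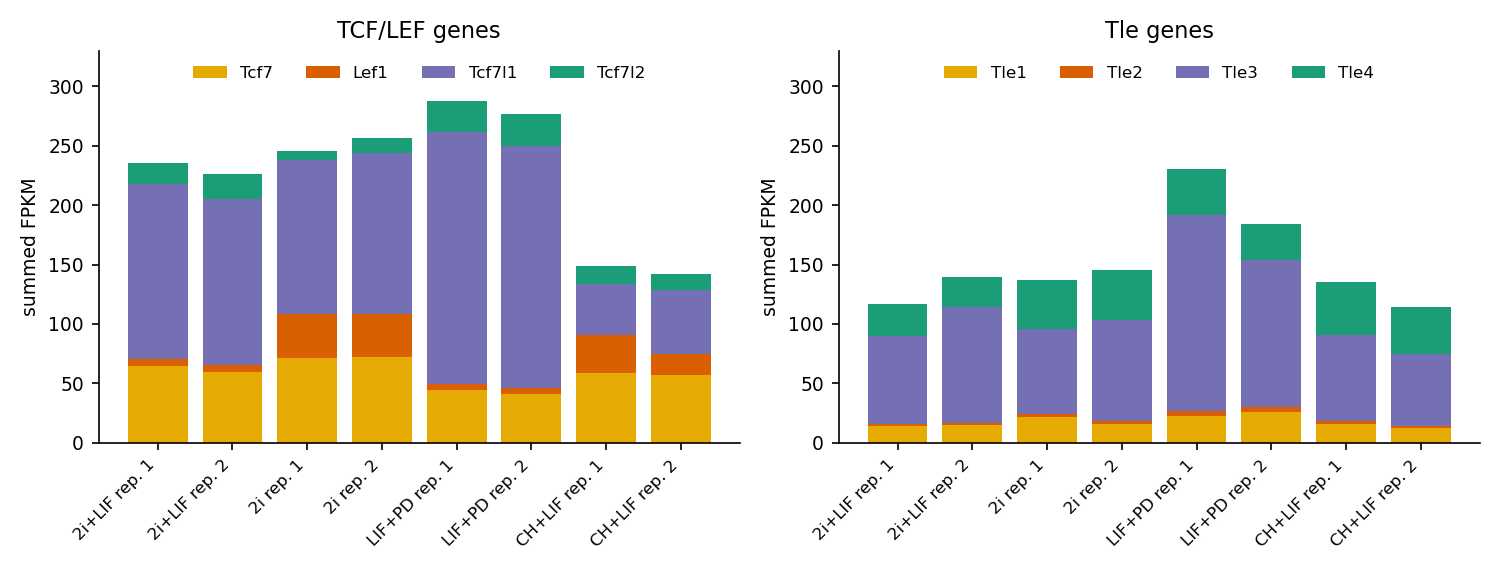
Summed FPKM (vertical axes) of the TCF/LEF genes (left) and of the Tle genes (right) in each of the 8 cultures, with a colour for each gene. The TCF/LEF sum is lowest in the CH+LIF cultures (149 and 142.2 FPKM), where the Tcf7l1 segment is small, and the Tle sum is highest in the LIF+PD cultures (230.2 and 184.5 FPKM), where the Tle3 segment is large.

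Ctnnb1 (chromosome 9, 120929216 to 120960507, + strand) was the most abundant of the 9 transcripts and passed the test in 0 of the 6 comparisons, and in 0 of them was its unadjusted limma p under 0.05. Its mean over the 8 cultures, 362.8 FPKM, was at the 97.8th percentile of the genes tested. The cultures measured 316 and 357 FPKM in 2i+LIF, 389.6 and 352 in 2i, 425 and 356 in LIF+PD, and 349 and 359 in CH+LIF. Every condition overlapped the next in the order of means, and the highest mean was 1.16-fold the lowest. Against 2i+LIF the differences were 0.14 in 2i (interval -0.13 to 0.41, limma adjusted p = 0.427), 0.21 in LIF+PD (-0.06 to 0.48, 0.215) and 0.07 in CH+LIF (-0.19 to 0.34, 0.668). Between the other conditions they were 0.07 for LIF+PD against 2i (-0.20 to 0.34, limma adjusted p = 0.69), -0.07 for CH+LIF against 2i (-0.33 to 0.20, 0.708) and -0.14 for CH+LIF against LIF+PD (-0.41 to 0.13, 0.401). The sign of the difference was not stable in 3 of these comparisons. It became -0.01 for CH+LIF against 2i+LIF without replicate 1 of 2i+LIF, -0.00 and -0.06 for LIF+PD against 2i without replicate 2 of 2i or replicate 1 of LIF+PD, and 0.01 and 0.07 for CH+LIF against 2i without replicate 1 of 2i or under TPM scaling. CH acts on the beta-catenin protein, which was not measured here. The deposited FPKM of Ctnnb1 lay outside its own deposited bounds in 8 of 8 cultures, and the gene overlaps Ulk4 and 4930593C16Rik on the other strand, whose FPKM reached at most 8.43.

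The Groucho corepressors bind TCF/LEF factors and other DNA-binding proteins and recruit histone deacetylases. Tle1, Tle2 and Tle3 were higher in LIF+PD, without CH, than in 2i+LIF, and Tle4 was higher in 2i and in CH+LIF than in 2i+LIF. Each of these calls was lost when certain single cultures were left out. Such a fit leaves a condition with a lone culture that is assumed to vary like the others.

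Tle3 (chromosome 9, 61372366 to 61418497, + strand) was the most abundant of the 4 in every culture, with 73.7 and 97.3 FPKM in 2i+LIF, 71.5 and 84.9 in 2i, 165 and 124.1 in LIF+PD, and 72.9 and 60.6 in CH+LIF. The LIF+PD cultures stood above all others, and the other conditions overlapped their neighbours in the order. Tle3 was higher in LIF+PD than in 2i+LIF by 0.75 ± 0.19 (limma adjusted p = 0.0279) and than in 2i by 0.87 ± 0.19 (limma adjusted p = 0.0158), and lower in CH+LIF than in LIF+PD by a log2 difference of -1.09 ± 0.19 (limma adjusted p = 0.00552). The last still passed with any single culture left out. The first was lost without replicate 1 of 2i+LIF (0.55, limma adjusted p = 0.143) or of LIF+PD (0.55, 0.139), with no filter (0.0632) and with the 2 conditions fitted alone (0.063). The second was lost without replicate 1 of 2i (0.75, limma adjusted p = 0.0859) or of LIF+PD (0.66, 0.0851). The differences that did not pass were -0.12 for 2i against 2i+LIF (interval -0.57 to 0.33, limma adjusted p = 0.703), -0.35 for CH+LIF against 2i+LIF (-0.79 to 0.10, 0.225) and -0.23 for CH+LIF against 2i (-0.67 to 0.22, 0.423). The first of these was 0.08 without replicate 2 of 2i+LIF and 0.00 without replicate 1 of 2i.

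**Figure D3:**
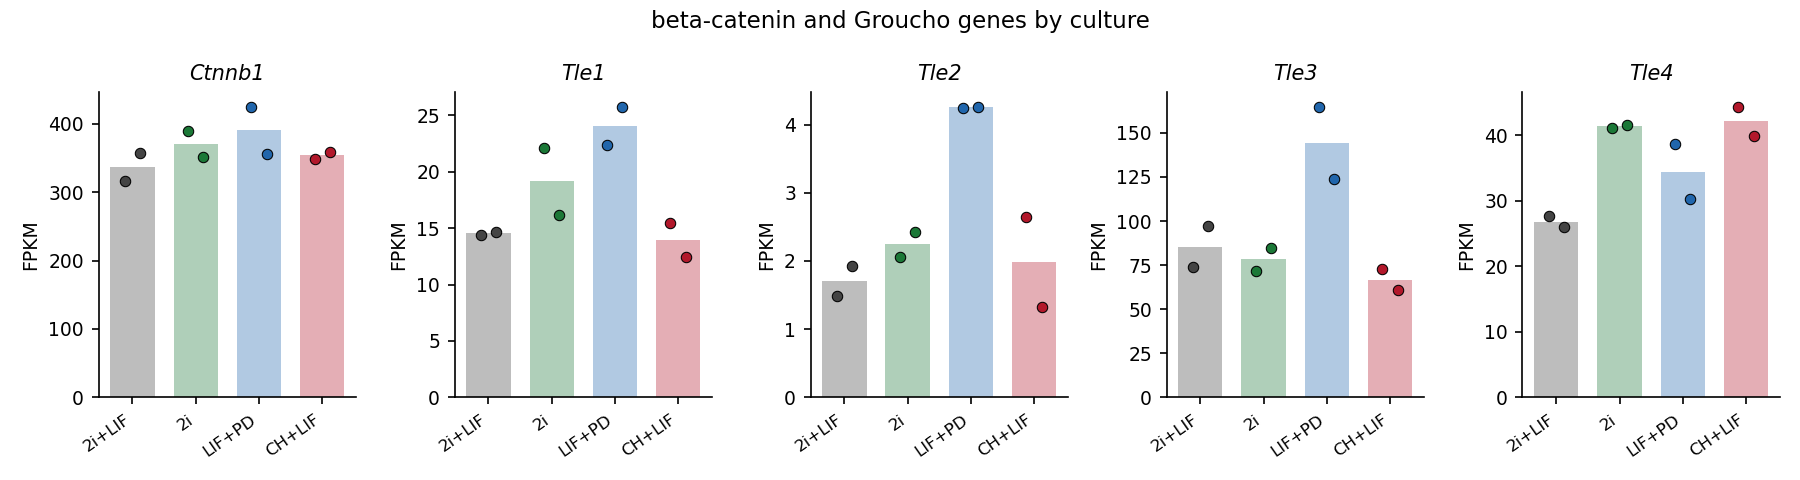
FPKM of Ctnnb1 and the 4 Tle genes (vertical axes, each with its own scale from 0) in the 4 conditions. Points are the 2 cultures of a condition and bars their mean; the Ctnnb1 cultures overlap between conditions, Tle1, Tle2 and Tle3 are highest in LIF+PD (means 24.1, 4.25 and 144.5 FPKM), and Tle4 is lowest in 2i+LIF (26.8 FPKM).

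Tle4 (chromosome 19, 14448072 to 14598051, - strand) measured 27.6 and 26.1 FPKM in 2i+LIF, 41.2 and 41.6 in 2i, 38.6 and 30.3 in LIF+PD, and 44.4 and 39.9 in CH+LIF. The 2i+LIF cultures were below all others, and 2i and CH+LIF overlapped. Tle4 was 1.54-fold higher in 2i than in 2i+LIF (0.61 ± 0.12, limma adjusted p = 0.0162) and 1.57-fold higher in CH+LIF than in 2i+LIF (0.63 ± 0.12, limma adjusted p = 0.0116). The first call was lost without replicate 1 (limma adjusted p = 0.0626) or 2 (0.0897) of 2i+LIF and without replicate 1 (0.0619) or 2 (0.0655) of 2i, with differences between 0.57 and 0.65. The second was lost without replicate 2 of 2i+LIF (limma adjusted p = 0.066) or replicate 1 of CH+LIF (0.0721). In LIF+PD the difference from 2i+LIF was 0.34 (interval 0.05 to 0.63, limma adjusted p = 0.0861), which passed under TPM scaling (0.47, 0.0276) and without replicate 2 of LIF+PD (0.51, 0.0342). The others were -0.27 for LIF+PD against 2i (interval -0.56 to 0.02, limma adjusted p = 0.163), 0.02 for CH+LIF against 2i (-0.27 to 0.32, 0.911) and 0.29 for CH+LIF against LIF+PD (-0.00 to 0.58, 0.119), of which the last passed without replicate 1 of LIF+PD (0.46, limma adjusted p = 0.0398). The second of them turned to -0.01 under quantile normalization and to -0.05 without replicate 1 of CH+LIF.

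Tle1 (chromosome 4, 72117142 to 72200919, - strand) measured 14.4 and 14.7 FPKM in 2i+LIF, 22.1 and 16.2 in 2i, 22.4 and 25.8 in LIF+PD, and 15.4 and 12.4 in CH+LIF. The LIF+PD cultures were the highest, and CH+LIF overlapped 2i+LIF. Tle1 was higher in LIF+PD than in 2i+LIF (0.69 ± 0.17, limma adjusted p = 0.0241) and lower in CH+LIF than in LIF+PD (-0.75 ± 0.17, limma adjusted p = 0.0147). The first call was lost without replicate 1 (limma adjusted p = 0.103) or 2 (0.0912) of 2i+LIF, without replicate 1 (0.0612) or 2 (0.118) of LIF+PD and with no filter (0.0511). The second was lost without replicate 2 of LIF+PD (limma adjusted p = 0.0823) or replicate 2 of CH+LIF (0.0783). The other differences were 0.36 for 2i against 2i+LIF (interval -0.03 to 0.75, limma adjusted p = 0.183), -0.06 for CH+LIF against 2i+LIF (-0.46 to 0.33, 0.812), 0.33 for LIF+PD against 2i (-0.06 to 0.72, 0.199) and -0.42 for CH+LIF against 2i (-0.82 to -0.03, 0.109). Without replicate 2 of 2i the last passed (-0.64, limma adjusted p = 0.0462), and the difference between CH+LIF and 2i+LIF turned to 0.13 under TPM scaling and to 0.08 without replicate 2 of CH+LIF.

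Tle2 (chromosome 10, 81574561 to 81590845, + strand) was the least abundant of the 9, at 1.49 and 1.92 FPKM in 2i+LIF, 2.06 and 2.42 in 2i, 4.24 and 4.26 in LIF+PD, and 2.65 and 1.33 in CH+LIF. The LIF+PD cultures were above all others, and the remaining conditions overlapped their neighbours. At this level the pseudocount of 1 compresses differences. Tle2 was 2.49-fold higher in LIF+PD than in 2i+LIF by FPKM (0.96 ± 0.23, limma adjusted p = 0.0221) and lower in CH+LIF than in LIF+PD (-0.85 ± 0.23, limma adjusted p = 0.0288). The first call was lost without replicate 1 (limma adjusted p = 0.114) or 2 (0.0616) of 2i+LIF, without replicate 1 (0.0905) or 2 (0.0882) of LIF+PD and with no filter (0.0525). The second was lost without replicate 1 (limma adjusted p = 0.105) or 2 (0.104) of LIF+PD, without replicate 2 of CH+LIF (-0.53, 0.109), with no filter (0.0654), under quantile normalization (0.0618) and with the 2 conditions fitted alone (0.0693). The difference of 0.70 between LIF+PD and 2i did not pass (interval 0.16 to 1.23, limma adjusted p = 0.0631). It passed without replicate 1 (0.0275) or 2 (0.0264) of CH+LIF, with the 2 conditions alone (limma adjusted p = 0.0431) and with a pseudocount of 5 (0.35, 0.0364). The differences between the other conditions were 0.26 for 2i against 2i+LIF (interval -0.27 to 0.80, limma adjusted p = 0.46), 0.11 for CH+LIF against 2i+LIF (-0.42 to 0.64, 0.756) and -0.15 for CH+LIF against 2i (-0.69 to 0.38, 0.665). The last 2 turned sign without 1 culture, the former to -0.00 and -0.21 without replicate 1 of 2i+LIF or of CH+LIF, and the latter to 0.17 without replicate 2 of CH+LIF.

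The 4 Tle genes summed to 128.6 ± 16.1 FPKM in 2i+LIF (SD, n = 2), 141 ± 5.81 in 2i, 207.3 ± 32.3 in LIF+PD and 124.8 ± 14.9 in CH+LIF. Tle3 held between 53.4% ± 0.57 of that sum, in CH+LIF, and 69.5% ± 3.1, in LIF+PD. Tle4 held 21.1% ± 3.5 in 2i+LIF, 29.4% ± 1 in 2i, 16.6% ± 0.25 in LIF+PD and 33.9% ± 1.5 in CH+LIF. For each FPKM of Tle there were 2.01 and 1.62 FPKM of TCF/LEF in 2i+LIF, 1.79 and 1.77 in 2i, 1.25 and 1.5 in LIF+PD, and 1.1 and 1.24 in CH+LIF. The ratio was thus lower in every culture of LIF+PD and CH+LIF than in any of 2i+LIF and 2i. In LIF+PD it went with a larger Tle sum and in CH+LIF with a smaller TCF/LEF sum.

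Without LIF (2i against 2i+LIF), 2 of the 9 genes were higher (Lef1 and Tle4) and 1 was lower (Tcf7l2), beside 9.77% of all genes higher, 8.86% lower and 18.6% called in either direction. Without CH (LIF+PD against 2i+LIF), 4 were higher (Tcf7l1, Tle1, Tle2 and Tle3) and 1 was lower (Tcf7), beside 14.8% of all genes higher, 10.4% lower and 25.2% in either direction. Without PD (CH+LIF against 2i+LIF), 2 were higher (Lef1 and Tle4) and 1 was lower (Tcf7l1), beside 12.2% higher, 13.3% lower and 25.4% in either direction. The median difference of the 9 genes was 0.20, 0.44 and -0.06 in these comparisons, beside 0.035, 0.034 and 0.007 over all genes tested. With 9 genes, these shares are counts of few items. Between LIF+PD and 2i 5 genes passed (Tcf7l1, Tcf7l2 and Tle3 higher in LIF+PD, Tcf7 and Lef1 lower), beside 14% higher, 11.1% lower and 25.1% in either direction. Between CH+LIF and 2i, 2 passed (Tcf7 and Tcf7l1, both lower in CH+LIF), beside 10.6% higher, 13.3% lower and 23.9% in either direction. Between CH+LIF and LIF+PD, the pair that differs in both inhibitors, 7 passed (Tcf7 and Lef1 higher in CH+LIF, Tcf7l1, Tcf7l2, Tle1, Tle2 and Tle3 lower), beside 12.6% higher, 17.8% lower and 30.4% in either direction. Of the 25 calls in all, 12 held under each of the 18 alternatives run. These were 4 calls of Lef1, 4 of Tcf7l1, 2 of Tcf7 (LIF+PD against 2i+LIF and against 2i), 1 of Tcf7l2 (LIF+PD against 2i) and 1 of Tle3 (CH+LIF against LIF+PD).

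**Figure D4:**
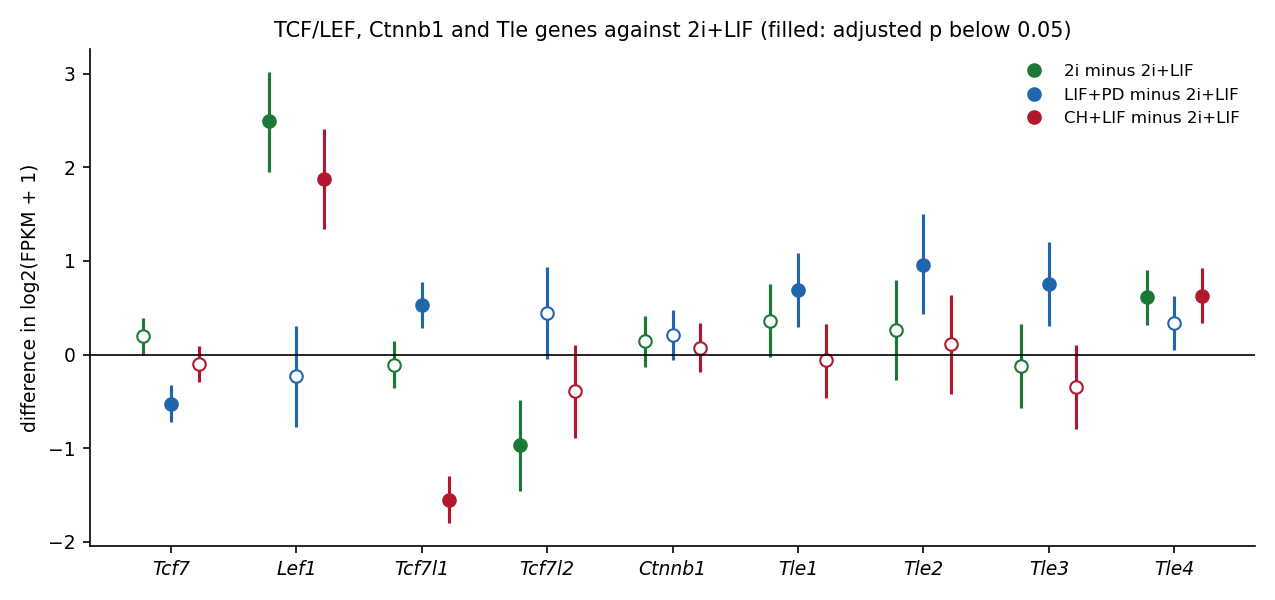
Difference in log2(FPKM + 1) from 2i+LIF (vertical axis) for each of the 9 genes in 2i, LIF+PD and CH+LIF. Bars are 95% intervals from the limma fit, and filled points passed an adjusted p of 0.05; Lef1 is at 2.49 in 2i and 1.88 in CH+LIF, Tcf7l1 at -1.55 in CH+LIF, and the Ctnnb1 intervals all include 0.

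Rescaling every culture to the same sum (TPM) shifted the median of all genes by 0.124 for LIF+PD and 0.186 for CH+LIF against 2i+LIF, and by 0.127 for CH+LIF against 2i. The share of called genes that were higher moved from 58.6% to 74.8%, from 47.9% to 74% and from 44.5% to 64% in those comparisons. No called difference of the 9 genes changed its direction under this or the other rescalings.

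The remaining genes of the pathway are given by lists. Beside the counts of each list, 18.6% of all genes were called in 2i, 25.2% in LIF+PD and 25.4% in CH+LIF against 2i+LIF. Aes and Tle6 are a short and a divergent relative of the Groucho genes, and Aes, which lacks the part that recruits corepressors, was lower without LIF: 208 and 177.3 FPKM in 2i+LIF against 76.4 and 70.7 in 2i (-1.37 ± 0.13, limma adjusted p = 0.000816). The deposited FPKM of Aes lay outside its own deposited bounds in every culture. Of the genes named below, the same held for Jup, Klf2, Sox2 and Zfp42, and in most cultures for Csnk1a1, Med12, Notum and Nr0b1. Tle6 did not pass in any comparison with 2i+LIF. Of the Groucho partners Hdac1, Hdac2, Ctbp1 and Ctbp2, the deacetylase gene Hdac2 was lower in 2i (-0.92 ± 0.13, limma adjusted p = 0.00401), and the corepressor gene Ctbp2 was higher in LIF+PD (0.44 ± 0.10, 0.0212) and in CH+LIF (0.62 ± 0.10, 0.00623). In CH+LIF, where Lef1 and Tle4 were also higher than in 2i+LIF, the differences of Aes (-0.13, interval -0.43 to 0.18, limma adjusted p = 0.509) and Hdac2 (-0.27, -0.58 to 0.04, 0.174) did not pass.

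Of the 9 genes of the destruction complex, which phosphorylates and tags beta-catenin, limma called 0 in 2i against 2i+LIF, and 0 had an unadjusted p under 0.05. In LIF+PD Axin2, which is also a Wnt target, was lower, and in CH+LIF the kinase gene Csnk1a1 was higher (0.29 ± 0.07, limma adjusted p = 0.0225) and the ubiquitin ligase subunit Btrc lower (-0.49 ± 0.10, 0.0151). The medians of the list were -0.11, -0.03 and 0.12 in 2i, LIF+PD and CH+LIF. Of the 9 beta-catenin coactivators tested of 10, the chromatin remodeller Smarca4 was higher in LIF+PD (0.30 ± 0.08, limma adjusted p = 0.0363) and in CH+LIF (0.45 ± 0.08, 0.0088), and the Mediator subunit Med12 was lower in both (-0.83 ± 0.14, 0.00536, and -0.62 ± 0.14, 0.0177). Bcl9l, which links beta-catenin to Pygopus proteins, was lower in CH+LIF (-0.65 ± 0.19, limma adjusted p = 0.0479), and 0 of this list were called in 2i, where 2 had an unadjusted p under 0.05. Among 4 genes for beta-catenin antagonists and TBL1 proteins, Cby1 was higher in LIF+PD (0.87 ± 0.14, limma adjusted p = 0.00542) and Tbl1x in 2i (0.40 ± 0.08, 0.0162). Of 5 genes of the cadherin-catenin junction, where beta-catenin also binds, Cdh1 (-0.36 ± 0.09, limma adjusted p = 0.0247) and Cdh2 (-0.49 ± 0.14, 0.0444) were lower in LIF+PD, and in CH+LIF Ctnnd1 was higher (0.50 ± 0.11, 0.0157) and Jup, which encodes the beta-catenin relative plakoglobin, was lower (-0.37 ± 0.08, 0.0187).

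The general Wnt targets are genes that beta-catenin and TCF/LEF factors activate in many tissues, and most of those tested fell without CH. Of 12 genes, 9 were tested, since Nkd1, Lgr5 and Dkk1 were below the filter. Rnf43 passed it only through the 2i cultures (2.09 and 1.42 FPKM), so the median for 2i includes a gene admitted where it was high. Without CH, 7 of the 9 were lower and 1 was higher, with a median of -2.14. Without LIF 2 were lower and 1 higher (median 0.30), and without PD 3 were lower and 1 higher (median 0.12). Of all genes tested, 10.4% were lower and 14.8% higher without CH, 8.86% and 9.77% without LIF, and 13.3% and 12.2% without PD. Axin2 measured 61.4 and 59.4 FPKM in 2i+LIF, 65.4 and 64.9 in 2i, 1.85 and 2.47 in LIF+PD, and 68.4 and 63.8 in CH+LIF. Its cultures without CH lay far below all others (-4.29 ± 0.11 against 2i+LIF, limma adjusted p = 6.5e-06). The transcription factor genes Sp5 (-5.69 ± 0.15, limma adjusted p = 6.5e-06), Cdx1 (-4.23 ± 0.26, 0.00014), Cdx2 (-3.23 ± 0.25, 0.000336) and T (-2.14 ± 0.36, 0.00613) also fell without CH, as did the Wnt inhibitor genes Notum (-0.84 ± 0.12, 0.00286) and Znrf3 (-0.45 ± 0.13, 0.0421). Ccnd1, the gene of cyclin D1, was higher in LIF+PD (0.45 ± 0.10, limma adjusted p = 0.0216) and in 2i (0.82 ± 0.10, 0.00269). Tcf7, itself a Wnt target in many tissues, fell in the same comparison by 0.53 on the log2 scale, and Lef1 differed by -0.23 without passing the test.

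**Figure D5:**
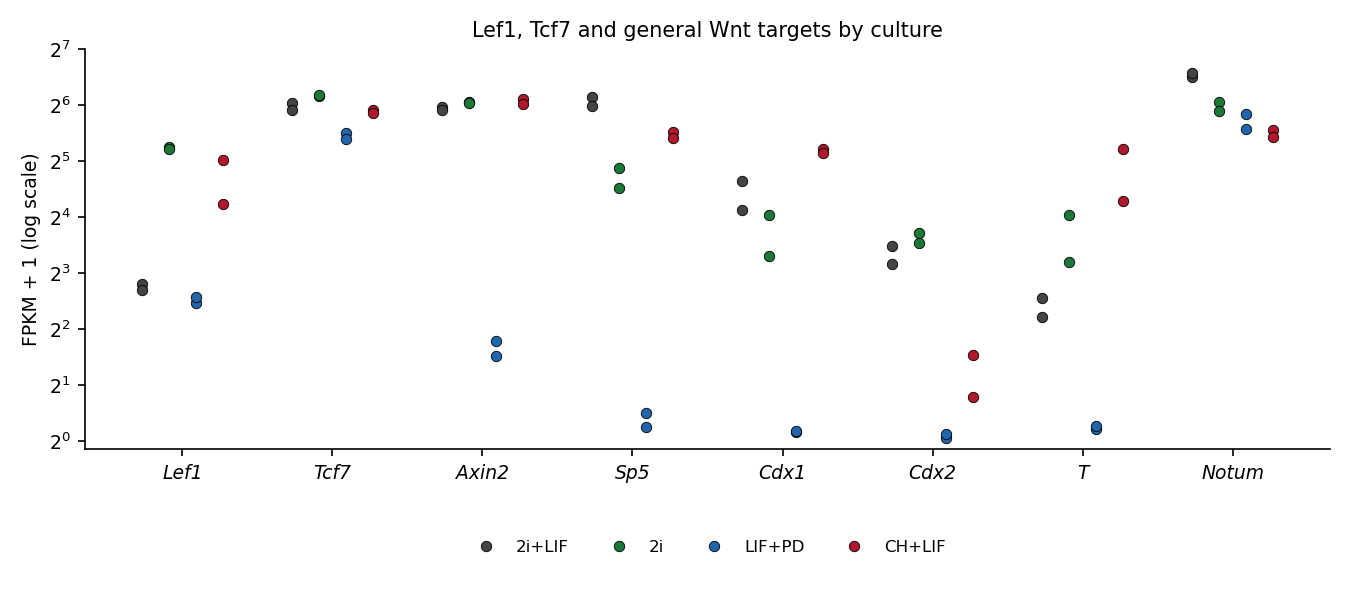
FPKM + 1 on a log2 axis (vertical) of Lef1, Tcf7 and 6 general Wnt targets in the 8 cultures, coloured by condition. Axin2, Sp5, Cdx1, Cdx2 and T are lowest in the LIF+PD cultures, whereas Lef1 is low in both 2i+LIF (5.74 FPKM) and LIF+PD (4.75 FPKM).

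In 2i and CH+LIF, where Lef1 was higher than in 2i+LIF, the targets differed in both directions. In 2i, Sp5 (-1.36 ± 0.15, limma adjusted p = 0.00163) and Notum (-0.57 ± 0.12, 0.0158) were lower than in 2i+LIF while Lef1 was 6.41-fold higher. Ccnd1 was called higher in 2i (means of 119.5 against 67.1 FPKM). The median of the target list was 0.30, with Rnf43, which passed the filter only through 2i, among its genes. In CH+LIF, Sp5 (-0.59 ± 0.15, limma adjusted p = 0.0302), Notum (-1.05 ± 0.12, 0.00156) and Cdx2 (-2.16 ± 0.25, 0.00193) were lower and T was higher (2.37 ± 0.36, 0.00468). T, the mesoderm factor Brachyury, measured 36.4 and 18.5 FPKM in the 2 CH+LIF cultures, and the culture with more Lef1 was also the one with more T. That is a single pair of cultures, and a link between Lef1 and T was not tested.

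Tcf7l1 is described in ESCs as a repressor of Esrrb, Nanog, Tfcp2l1, Klf2 and Nr0b1, genes of the naive network. In CH+LIF, where Tcf7l1 was lower, limma called 0 of the 5 higher and 2 lower, the 2 that had an unadjusted p under 0.05: Nanog (-0.80 ± 0.11, adjusted p = 0.00366) and Klf2 (-0.60 ± 0.12, adjusted p = 0.0116). In LIF+PD, where Tcf7l1 was higher, 4 of 5 were lower: Tfcp2l1 (-1.16 ± 0.11, limma adjusted p = 0.000699), Klf2 (-0.60 ± 0.12, 0.0115), Nr0b1 (-0.50 ± 0.12, 0.0223) and Esrrb (-0.42 ± 0.11, 0.0297). In 2i, where the Tcf7l1 difference did not pass, Tfcp2l1 (-1.03 ± 0.11, limma adjusted p = 0.0016), Nr0b1 (-0.65 ± 0.12, 0.0106) and Esrrb (-0.49 ± 0.11, 0.0219) were lower. The medians of the 5 genes were -0.07, -0.50 and -0.49 in these comparisons, and the list fell in part in all 3. Of all genes tested, 13.3%, 10.4% and 8.86% were called lower in the same order. Tcf7l1 protein was not measured, the conditions also lacked PD, CH or LIF, and the part of Tcf7l1 in these differences was not tested.

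Markers of ESCs and of other cell types moved between the conditions as well. Of the 7 ESC markers, 3 were lower in 2i than in 2i+LIF (Klf4, Esrrb and Tfcp2l1), 3 were lower (the same genes) and 1 higher (Zfp42) in LIF+PD, and 2 were lower in CH+LIF (Nanog and Sox2). Of all genes tested, 18.6%, 25.2% and 25.4% were called in either direction in the same order. Klf4, a naive factor, measured 202.9 and 196.4 FPKM in 2i+LIF, 47.7 and 50.6 in 2i, 117.5 and 103.3 in LIF+PD, and 175.3 and 218.9 in CH+LIF. It was lower in 2i (4.06-fold, limma adjusted p = 0.00014) and in LIF+PD (-0.85 ± 0.12, 0.00306), Zfp42 was higher in LIF+PD (0.32 ± 0.09, 0.0381), and Sox2 was lower in CH+LIF (-0.48 ± 0.11, 0.023).

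The mesoderm markers T, Mixl1, Eomes and Mesp1 summed to between 5.61 and 6.87 FPKM in 2i+LIF, 11.9 and 21.6 in 2i, 1.80 and 2.16 in LIF+PD, and 27.9 and 46.8 in CH+LIF. The sums were low in the conditions in which Lef1 was low and higher in 2i and CH+LIF. Of the 2 that were tested, Eomes was called higher in 2i and both T and Eomes in CH+LIF. Mesp1 was at most 0.259 FPKM in any culture. It was listed at 0 in both cultures of 2i+LIF and also in a culture of every other condition. The neural markers found, 3 of 4 on the list, summed to between 5.19 and 6.03 FPKM in 2i+LIF, 10.6 and 12.4 in 2i, 19.2 and 19.7 in LIF+PD, and 3.26 and 3.90 in CH+LIF. Pax6 was called higher in 2i and LIF+PD, and Nes was called higher in LIF+PD and lower in CH+LIF. Pax6 was at most 0.806 FPKM in 2i+LIF and CH+LIF and passed the filter only through 2i and LIF+PD, where it was called. In 2i the means of Sox1 (0.0298 against 0.594 FPKM in 2i+LIF) and Nes (2.96 against 4.50) were lower without being called. The median difference of the 3 neural markers in 2i was -0.47. The trophectoderm markers summed to between 33.7 and 35.8 FPKM in 2i+LIF, 43.1 and 43.8 in 2i, 60.3 and 71.3 in LIF+PD, and 17.6 and 18 in CH+LIF. Tfap2c was the largest part of these sums in every culture. Gata3 and Tfap2c were called higher and Cdx2 lower in LIF+PD, and Cdx2 and Tfap2c were called lower in CH+LIF. Elf5 was at most 0.433 FPKM in any culture. It was listed at 0 in both cultures of CH+LIF and also in a culture of 2i and of LIF+PD. The fibroblast markers summed to between 0.2704 and 0.617 FPKM in 2i+LIF, 1.496 and 4.19 in 2i, 1.80 and 2.61 in LIF+PD, and 3.05 and 4.00 in CH+LIF. Of the 2 that were tested, Col1a1 was not called against 2i+LIF. Thy1 was higher than in 2i+LIF in 2i (1.52 ± 0.27, limma adjusted p = 0.0102), LIF+PD (0.93 ± 0.27, 0.0469) and CH+LIF (1.78 ± 0.27, 0.00504). It was at 0.117 and 0.160 FPKM in 2i+LIF and passed the filter only through the other conditions, so its calls are not independent of that filter. Col3a1 was listed at 0 in every culture. The fibroblast sums were lowest in 2i+LIF, and Thy1 made up most of those in 2i and CH+LIF. The primitive endoderm markers summed to at most 2.24 FPKM in any culture. The part of these markers' cell types in the TCF/LEF and Tle differences was not tested.

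The genes whose log2(FPKM + 1) values followed those of the TCF/LEF genes most closely over the 8 cultures were sought among 9556 tested genes with a mean of at least 5 FPKM, as a description over cultures that cluster by condition. They were Zyg11b (Pearson's r = 0.993) and Oat (0.992) for Tcf7, Nabp2 (0.986) and Rbbp7 (0.983) for Lef1, Dcxr (0.994) and Gadd45b (0.992) for Tcf7l1, and Hemk1 (0.971) and Anln (0.962) for Tcf7l2. Oat, picked for its r with Tcf7, measured 65.7 and 66.4 FPKM in 2i and 23.1 and 21.7 in LIF+PD, with the other conditions between them.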

How the data were processed

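Total RNA was purified with RNeasy and sequenced as single-end libraries, which the methods describe as rRNA-depleted and the sample records as made from polyA RNA. The authors aligned reads to mm10 with Ensembl 75 annotation, and the submitters' processing notes name TopHat2, Cufflinks and Cuffdiff without roles or versions. The authors deposited FPKM values of every gene for each culture separately, together with 2 bounds around each value. FPKM keeps no read number, so no counting error is given, and the relative depth above rests on the spacing of weak values, of which 13% to 22.4% gathered at a single ratio. FPKM also depends on the transcript lengths and library totals that were used, and the FPKM sums of the cultures ran from 715575 to 875458.

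The 39013 entries were summed by Ensembl identifier to 38991 genes. Deposited starts count from 0 and are given here from 1. Since FPKM are not counts, no count test was used. Values were tested as log2(FPKM + 1) with limma 3.58.1 (mean-variance trend, 4 residual degrees of freedom, 12927 genes that reached 1 FPKM in 2 cultures or more) in R 4.3.3, and tables were made in Python 3.11.15 with pandas 2.3.3. All 9 genes are described in all 6 comparisons, and other genes are named where they come from the pathway and marker lists and passed in at least 1 comparison with 2i+LIF. The genes, though listed by name, and the lists were chosen with earlier results of these data known. Same-numbered cultures of different conditions had deviations from their condition means that correlated at -0.0283 to 0.0925, so the numbers were not taken as pairs. The procedure was tested on simulated data. Alternatives were pseudocounts of 0.1 and 5, no filter, a filter of 5 FPKM, TPM rescaling, size factors, quantile normalization, no trend, fits of 2 conditions, a replicate block, and leaving out each culture.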

Additional observations from a re-analysis of the deposited data

How the results depend on the processing

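Over the 54 differences of the 9 genes and the 18 alternatives, 966 values were computed, and Tle2 had none under the filter of 5 FPKM. Of these, 880 kept their direction and their side of the threshold, 57 lost the threshold (42 of them with a culture left out), 14 gained it and 15 turned sign, of which 0 belonged to a called difference. With a culture left out, the differences whose sign turned ran from -0.32 to 0.08 for Tle3 in 2i against 2i+LIF (0.00 without replicate 1 of 2i). In CH+LIF against 2i+LIF the sign turned for Tcf7 (0.10) and Tle1 (0.13) under TPM, and with a culture left out Tle1 reached 0.08, Ctnnb1 ran from -0.01 to 0.16 and Tle2 from -0.21 to 0.43 (-0.00 without replicate 1 of 2i+LIF). In LIF+PD against 2i Ctnnb1 ran from -0.06 to 0.20 (-0.00 without replicate 2 of 2i). In CH+LIF against 2i Ctnnb1 was 0.07 under TPM and ran from -0.14 to 0.01 with a culture left out, Tle4 was -0.01 under quantile normalization and -0.05 without replicate 1 of CH+LIF, and Tle2 ran from -0.48 to 0.17. In LIF+PD against 2i+LIF, 2 of the 9 genes were called without the filter, in place of 5. In CH+LIF against 2i, 1 was called in place of 2 under TPM, size factors, no trend and a fit of the 2 conditions alone. With only the 2 conditions fitted, which leaves fewer cultures to estimate the spread, 1500 genes were called in place of 2408 for 2i against 2i+LIF and 1808 in place of 3089 for CH+LIF against 2i. Leaving out 1 culture gave 1167 to 2141 genes for 2i, 1687 to 3342 (in place of 3263) for LIF+PD and 1520 to 3330 (in place of 3286) for CH+LIF against 2i+LIF, 1970 to 2966 (in place of 3242) for LIF+PD and 1494 to 2705 for CH+LIF against 2i, and 2311 to 3991 (in place of 3928) for CH+LIF against LIF+PD. The genes called among the 9 then ran from 1 to 3, 1 to 6, 2 to 4, 4 to 6, 1 to 3 and 3 to 7 in that order. With the replicate number as a block, 2547, 3470, 3519, 3467, 3338 and 4105 genes were called in the same order, and no call of the 9 genes changed. With 2 cultures per condition and 4 residual degrees of freedom, differences under about the intervals given above could not be resolved, and the depth behind each FPKM is unknown.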
